A study of Mus musculus with 18 samples.

Results

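The genes described here are 42 genes of S phase entry and DNA replication, among them the MCM helicase, the replicative polymerases, the sliding clamp and the enzymes of nucleotide supply. Members were the rows of the deposited count table whose Ensembl identifier carried 1 of the 42 symbols in GENCODE M21, and all 42 were found among 55414 gene identifiers. Polyadenylated RNA was sequenced in 2 experiments on Wild Type C57BL/6J mice, with no transgene or deletion named for any group. In the first, whole spleens were taken after 30 days of filtered air (4 libraries) or of PM2.5, fine airborne particles (4 libraries; their titles and treatment labels read CAP, taken here as the PM2.5 group of the design text). In the second, macrophages were isolated from spleens of mice given air (5 libraries) or PM2.5 (5 libraries) for 30 days. The labels of the second experiment also mention filtered air next to both exposures, and do not say whether a recovery period followed. Neither the labels nor the design text give the age and sex of the mice, the way macrophages were isolated or any pooling of animals. Titles call the libraries biological replicates, without naming the animals behind them, so that p-values measure the spread between these libraries.

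DNA is copied once per cell cycle. In G1 the origin recognition complex, Cdc6 and Cdt1 load the MCM hexamer onto origins. At the start of S phase, kinases and the factors Cdc45, GINS and Mcm10 turn the loaded hexamer into a moving helicase, and primase with polymerase alpha starts each new strand. Polymerases delta and epsilon then extend the strands on the Pcna clamp, while ribonucleotide reductase and thymidylate synthase supply the nucleotides. Many of these genes are targets of E2F transcription factors and are transcribed as cells enter S phase. In the mouse spleen, cycling cells are known to include erythroid precursors of the red pulp, B cells of germinal centres and plasmablasts, and macrophages can also divide in the tissue.

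The promoters of the members were searched for E2F sites because most members moved together across libraries. RefSeq promoter windows of GRCm38.p6, reaching from 250 bases before to 50 bases after a start site, were at hand for 35 of the 42 genes, and Ccne2, Gins2, Prim2, Mcm4, Exo1, Pole and Gins1 were not searched. The forms TTTCCCGC, TTTGGCGC, TTTCGCGC, TTTGCCGC and TTCCCGCC were sought on both strands, and neighbouring forms can overlap. At least 1 form occurred in 19 of the 35 genes (54.3%), against 4.46% of 27025 genes with such a window and 7.60% of the 11786 that were also tested in the spleen or macrophage comparison. No form was found in the windows of Ccne1, Cdc45, Chaf1b, Dut, E2f1, Fen1, Mcm2 and Mcm10. The same held for Orc6, Pcna, Pola2, Rfc5, Rpa2, Rrm2, Tk1 and Tyms. The CCAAT box, with its letters CCAAT, occurred in 20 of the 35 (57.1%, against 42.2% of the tested genes), and the GC box form GGGCGG in 26 (74.3%, against 64.2%). TTTGAA, a form of the cell cycle homology region found before many mitotic genes, occurred in 4 of the 35 (11.4%, against 15% of them). These shares describe letters in a window and not bound sites. The Mcm6 promoter window, chr1:128359656-128359955 on the minus strand, is printed whole because Mcm6 had the smallest p-value of the set in macrophages. It holds 3 matches, of which 2 overlap near its centre, and capitals mark the matches:
Mcm6 promoter: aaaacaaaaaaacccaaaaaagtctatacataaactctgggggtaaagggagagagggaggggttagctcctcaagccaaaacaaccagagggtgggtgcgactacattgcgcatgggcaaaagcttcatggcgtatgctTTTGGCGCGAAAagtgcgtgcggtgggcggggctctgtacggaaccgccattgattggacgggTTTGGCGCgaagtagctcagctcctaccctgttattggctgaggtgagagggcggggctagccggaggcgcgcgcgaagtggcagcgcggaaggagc
For 12 of the members that hold a form, 60 bases around a match are shown, because these genes recur in the results and the sequences let the sites be compared. They are read 5′ to 3′ along the gene, with every match in capitals and overlapping matches run together. The windows lie for Cdc6 at chr11:98907987-98908046 (plus strand), Orc1 at chr4:108579401-108579460 (plus strand), Mcm3 at chr1:20820263-20820322 (minus strand) and Mcm5 at chr8:75109334-75109393 (plus strand). Those of Mcm6 at chr1:128359719-128359778 (minus strand), Mcm7 at chr5:138171834-138171893 (minus strand), Pole2 at chr12:69228147-69228206 (minus strand) and Prim1 at chr10:128015174-128015233 (plus strand) follow. The last are Rfc4 at chr16:23127687-23127746 (minus strand), Rrm1 at chr7:102441602-102441661 (plus strand), Uhrf1 at chr17:56303263-56303322 (plus strand) and Clspn at chr4:126556970-126557029 (plus strand).
Cdc6: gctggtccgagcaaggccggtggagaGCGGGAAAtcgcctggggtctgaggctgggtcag
Orc1: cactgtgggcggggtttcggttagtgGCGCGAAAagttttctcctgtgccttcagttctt
Mcm3: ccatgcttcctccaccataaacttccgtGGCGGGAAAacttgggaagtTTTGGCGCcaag
Mcm5: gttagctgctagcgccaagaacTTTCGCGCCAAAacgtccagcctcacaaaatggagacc
Mcm6: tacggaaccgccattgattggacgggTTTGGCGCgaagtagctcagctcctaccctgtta
Mcm7: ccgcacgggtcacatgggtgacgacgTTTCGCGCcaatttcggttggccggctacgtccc
Pole2: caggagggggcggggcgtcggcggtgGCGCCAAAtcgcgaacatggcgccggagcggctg
Prim1: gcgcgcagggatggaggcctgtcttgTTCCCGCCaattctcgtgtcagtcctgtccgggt
Rfc4: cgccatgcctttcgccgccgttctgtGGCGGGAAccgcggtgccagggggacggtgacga
Rrm1: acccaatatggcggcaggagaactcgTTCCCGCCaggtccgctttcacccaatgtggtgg
Uhrf1: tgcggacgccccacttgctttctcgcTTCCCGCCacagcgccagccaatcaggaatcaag
Clspn: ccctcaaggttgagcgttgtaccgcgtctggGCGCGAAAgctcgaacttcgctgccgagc
In Mcm5 the forms TTTCGCGC and TTTGGCGC lie across each other on opposite strands, as they do in the upstream match of the Mcm6 promoter. Mcm3 carries TTTGGCGC downstream of a merged match of TTCCCGCC and TTTCCCGC.

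Spleen libraries held 16493694 to 20352346 counts after air and 18427891 to 19906706 after PM2.5. Macrophage libraries held 18107264 to 29013034 counts after air and 18848048 to 33844807 after PM2.5. A member had between 46 and 5549 counts in a library, and all 42 passed the filter on low counts in every comparison. Levels are given as CPM, read counts relative to the library total, with TMM scaling within an experiment, in the order of the replicate numbers. The 15 macrophage markers had a summed level between 22996 and 32610 CPM in macrophage air, between 19102 and 27309 CPM in macrophage PM2.5 and at most 1395 CPM in any spleen library. Erythroid, B cell, plasma cell and T cell markers were also detected in the macrophage preparations, with the values given below beside the result. The first macrophage PM2.5 library has a treatment label reading air, while its title and description have the CAP naming of that group. The titles of all PM2.5 libraries also hold the word Air. The first macrophage PM2.5 library was grouped by its title, and the main macrophage counts are also given with it counted as air. In bulk RNA, more cells in S phase and more of each transcript per cell cannot be told apart.

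In the macrophage preparations, all 42 replication genes had a higher mean after PM2.5 than after air. Log2 fold changes ran from 0.08 for Tk1 to 0.97 for Ccne1, with a median of 0.43 against 0.01 over all 15696 genes tested. All 6 genes of the MCM helicase, all 3 of the lagging strand and all 3 of chromatin assembly were higher at an unadjusted p under 0.05, against 2 of the 7 polymerase and primase genes. No member passed the adjusted threshold of 0.05 in edgeR, as was the case for 0.0% of all tested genes, and the smallest adjusted p of the set was 0.258. At an unadjusted p under 0.05, 29 of 42 members were higher and 0 lower, while 6.24% of all tested genes were higher at that threshold. DESeq2 called 12 members, all higher, where it called 1.13% of all genes, and limma-voom called 0, with 33 higher at an unadjusted p under 0.05, beside 6.22% of all genes. For 8 members every PM2.5 library lay above every air library, a separation seen in 1.41% of all tested genes, and a positive log2 fold change was seen in 51.4% of them. These 8 were Mcm6, Tyms, Dut, Pole2, Prim1, Rfc4, Ccne1 and Exo1. The members share libraries and moved together, with a median correlation of 0.88 between a member and the mean of the others over 10 libraries, so their counts are not counts of independent genes.

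**Figure D1:**
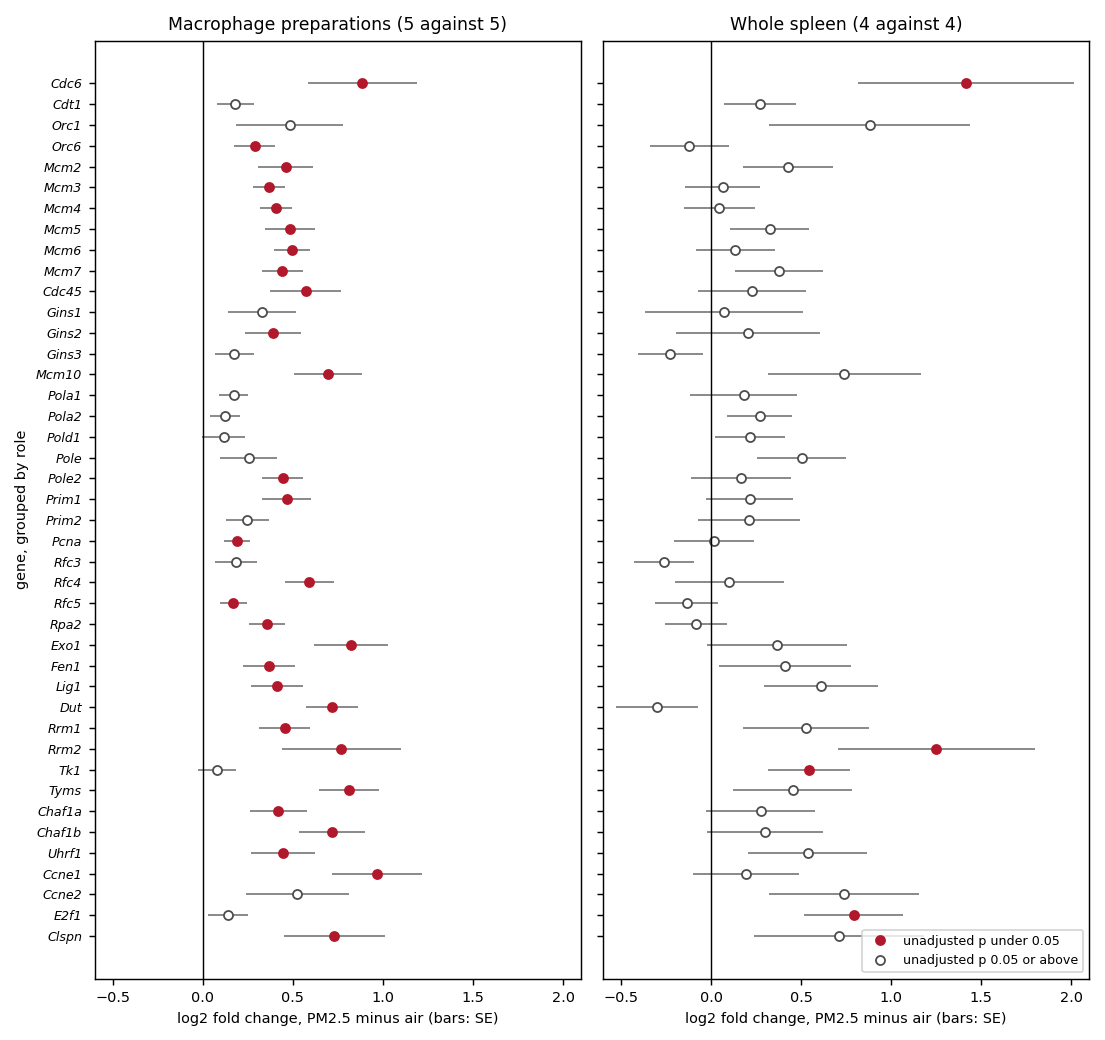
Log2 fold change (PM2.5 minus air, x axis) of each of the 42 replication genes (y axis, grouped by role) in macrophage preparations (left) and whole spleen (right). Points are edgeR estimates, bars are standard errors, and filled points have an unadjusted p under 0.05: 29 genes in macrophages, where all 42 points lie right of zero, and 4 in spleen, where 36 do.

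Leaving out single libraries moved these counts without turning a direction. The 42 positive log2 fold changes held in each of the 19 alternatives run for macrophages, and the number at an unadjusted p under 0.05 was between 21 and 35 when 1 library was left out, beside 4.03% to 7.09% of all genes. It was 17 in a fit of all 18 libraries together, beside 4.12% of all genes. With the library with the air tag counted as air it was 22, beside 618 of all 16019 genes. The median log2 fold change of the members was then 0.37. Without PM2.5 replicate 1, 12 members separated fully (2.41% of all genes), and with that library counted as air, 5 did (Mcm4, Pola1, Prim1, Uhrf1 and Clspn; 1.15% of all genes). Dropping air replicate 4 gave 18 separated members and 3.6% of all genes, and dropping PM2.5 replicate 4 gave 16 and 2.16%, so that separation was more frequent among all genes too. Full separation of Dut, Tyms, Mcm6, Pole2, Rfc4, Ccne1 and Exo1 was therefore lost once the library with the air tag was placed among the air libraries.

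Among the licensing genes, Cdc6 and Orc6 had an unadjusted p under 0.05 in macrophages and Cdt1 and Orc1 did not. Cdc6, the ATPase that recruits the MCM hexamer with Cdt1, showed a wide spread. Cdc6 had 7.62, 11.2, 3.82, 10.6 and 12.2 CPM in the macrophage air libraries and 12.0, 19.6, 20.4, 9.85 and 21.3 CPM in the macrophage PM2.5 libraries. PM2.5 replicates 2, 3 and 5 lay above all air libraries, while replicates 1 and 4 lay within their range (log2 fold change 0.89, SE 0.30, adjusted p = 0.352). Cdc6 had 10.8, 12.1, 3.97 and 5.24 CPM in the air spleens and 7.90, 52.9, 8.87 and 16.1 CPM in the PM2.5 spleens. In spleen only replicates 2 and 4 of the PM2.5 group exceeded the highest air library (log2 fold change 1.42, SE 0.60, adjusted p = 0.267). Cdt1, the loading factor that geminin blocks, was the most abundant licensing gene by CPM. Cdt1 had 37.1, 39.0, 33.0, 48.0 and 41.5 CPM in the macrophage air libraries and 45.5, 43.9, 47.1, 39.1 and 49.4 CPM in the macrophage PM2.5 libraries, so that the groups overlapped (log2 fold change 0.18, SE 0.10, adjusted p = 0.551). Cdt1 had 27.7, 45.3, 44.5 and 52.2 CPM in the air spleens and 50.8, 65.2, 42.8 and 46.5 CPM in the PM2.5 spleens, where PM2.5 replicate 2 was highest. Orc1, the ATPase subunit of the origin recognition complex, ranged from 2.44 to 6.93 CPM in macrophage air and 4.30 to 7.99 in macrophage PM2.5. In spleen PM2.5 it ranged from 2.43 to 18.3 CPM, and air libraries held 2.43 to 5.49. Orc6, the smallest subunit, was at 8.85 to 12.6 CPM in macrophage air and 11.8 to 15.5 in macrophage PM2.5 (log2 fold change 0.29).

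All 6 subunits of the MCM helicase had an unadjusted p under 0.05 in macrophages, with log2 fold changes between 0.37 and 0.50, and DESeq2 called Mcm3, Mcm4, Mcm6 and Mcm7. The subunits form 1 ring, and their changes lay close together. Mcm6 had 59.2, 70.9, 52.4, 79.1 and 64.9 CPM in the macrophage air libraries and 91.9, 94.0, 95.9, 84.6 and 94.0 CPM in the macrophage PM2.5 libraries. Every PM2.5 library was above the highest air library, replicate 4 of the air group (log2 fold change 0.50, SE 0.10, adjusted p = 0.258). Mcm6 (ENSMUSG00000026355, chr1:128331590-128359664, minus strand) had 104, 93.9, 88.2 and 88.2 CPM in the air spleens and 84.3, 161, 71.4 and 93.8 CPM in the PM2.5 spleens, with PM2.5 replicate 2 far above the other 7 and replicate 3 lowest. Mcm4 had 49.4, 52.8, 47.0, 64.2 and 55.4 CPM in the macrophage air libraries and 63.9, 73.4, 76.2, 67.9 and 74.5 CPM in the macrophage PM2.5 libraries. Only the overlap between air replicate 4 and PM2.5 replicate 1 kept the groups from separating (log2 fold change 0.41, SE 0.09, adjusted p = 0.258). Mcm4 had 98.5, 78.7, 79.5 and 79.9 CPM in the air spleens and 77.8, 129, 66.9 and 73.8 CPM in the PM2.5 spleens. PM2.5 replicates 1, 3 and 4 were below every air library there, and replicate 2 was above all of them. Mcm3 had 53.4, 57.7, 51.0, 70.4 and 58.7 CPM in the macrophage air libraries and 74.6, 75.2, 78.4, 66.6 and 80.5 CPM in the macrophage PM2.5 libraries. Here PM2.5 replicate 4 was under the highest air value while the other 4 exceeded it (log2 fold change 0.37, SE 0.09, adjusted p = 0.258). Mcm3 had 82.1, 96.2, 99.6 and 95.7 CPM in the air spleens and 80.5, 149, 69.9 and 91.2 CPM in the PM2.5 spleens, and again replicate 2 stood alone. Mcm7 had 53.5, 60.3, 43.8, 72.3 and 60.1 CPM in the macrophage air libraries and 80.4, 77.6, 83.1, 71.8 and 80.9 CPM in the macrophage PM2.5 libraries, with overlap at air replicate 4 and PM2.5 replicate 4 (log2 fold change 0.44, SE 0.11, adjusted p = 0.267). Mcm7 had 102, 93.4, 82.4 and 90.2 CPM in the air spleens and 93.5, 200.2, 87.2 and 97.4 CPM in the PM2.5 spleens. Its exons overlap Mir25 and Mir93 on the same strand, and reads there cannot be assigned to 1 transcript. Mcm2 (log2 fold change 0.46) and Mcm5 (0.48) overlapped between the macrophage groups through air replicate 4 as well.

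The 5 members that help activate the helicase were less even. Mcm10, which helps the active helicase form and binds polymerase alpha, had the highest mean CPM of these genes over all 18 libraries, although Gins3 and Cdc45 had higher means in both air groups. Mcm10 had 5.21, 8.08, 5.03, 9.14 and 7.10 CPM in the macrophage air libraries and 9.54, 11.9, 13.3, 8.54 and 12.2 CPM in the macrophage PM2.5 libraries. The lowest PM2.5 library, replicate 4, was under air replicate 4 (log2 fold change 0.69, SE 0.19, adjusted p = 0.287), and DESeq2 gave an adjusted p of 0.0408. Over the alternatives for Mcm10 in macrophages the adjusted p lay between 0.0408 and 0.799. Mcm10 had 10.2, 11.3, 4.65 and 12.9 CPM in the air spleens and 9.87, 32.6, 10.1 and 12.8 CPM in the PM2.5 spleens, a pattern with 1 high library (log2 fold change 0.74, SE 0.42, adjusted p = 0.414). Cdc45, which rides with the MCM ring, was at 4.82 to 11.5 CPM in macrophage air and 10.3 to 12.0 CPM in macrophage PM2.5 (log2 fold change 0.57). Gins1, Gins2 and Gins3 are subunits of GINS, the other part of the active helicase, and a further subunit, Gins4, is not in the set. Of these members Gins2 had an unadjusted p under 0.05 in macrophages while Gins1 and Gins3 did not. Gins3 was at 7.14 to 8.29 CPM in macrophage air and 7.65 to 10.1 in macrophage PM2.5. In spleen it was at 11.5 to 15 CPM in air and 9.98 to 13.2 in PM2.5, and it was 1 of the 6 members with a negative log2 fold change there. Of the exon bases of Gins2, 67.3% overlap Gse1 on the opposite strand. No strand setting is stated for the counting, so it is not known whether its counts lost or gained reads through this overlap.

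Polymerase and primase genes had a median log2 fold change of 0.25 over 7 genes in macrophages, and an unadjusted p under 0.05 for Pole2 and Prim1. Pole2, the second subunit of the leading strand polymerase epsilon, was at 4.79 to 6.50 CPM in macrophage air and 7.14 to 8.41 in macrophage PM2.5 (log2 fold change 0.45, SE 0.11, adjusted p = 0.267). Prim1, the catalytic primase subunit, was at 9.37 to 16.9 and 17.1 to 20.5 CPM, respectively (log2 fold change 0.47, SE 0.14, adjusted p = 0.296). Neither gene's groups overlapped, and for Prim1 the gap was narrow. Pole2 shares exon bases with Gm49384 on its own strand. Pold1, the catalytic subunit of polymerase delta, was the most abundant of this role by CPM. Pold1 had 65.3, 69.9, 72.0, 93.3 and 60.1 CPM in the macrophage air libraries and 65.1, 73.6, 78.0, 91.6 and 82.4 CPM in the macrophage PM2.5 libraries, and these groups overlapped widely (log2 fold change 0.12, SE 0.12, adjusted p = 0.749). Pold1 had 57.1, 118, 93.1 and 113 CPM in the air spleens and 123, 105, 111 and 103 CPM in the PM2.5 spleens. Air replicate 1 was the lowest of the 8 spleens and air replicate 2 the second highest. Pola1 had 25.4, 24.5, 23.4, 26.6 and 26.6 CPM in the macrophage air libraries and 24.8, 29.8, 27.1, 31.2 and 29.6 CPM in the macrophage PM2.5 libraries. PM2.5 replicate 1 lay within the air range and the other 4 were above it (log2 fold change 0.17, SE 0.08, adjusted p = 0.470). Pola1, the catalytic subunit of polymerase alpha, had 17.1, 17.1, 12.4 and 13.7 CPM in the air spleens and 15, 29.7, 12.2 and 11.4 CPM in the PM2.5 spleens, where replicates 3 and 4 of the PM2.5 group were lowest. Pole had 13.0, 17.8, 12.2, 19.2 and 13.8 CPM in the macrophage air libraries and 12.8, 19.6, 18.7, 18.5 and 20.8 CPM in the macrophage PM2.5 libraries, with PM2.5 replicate 1 near the bottom of the air range (log2 fold change 0.25, SE 0.16, adjusted p = 0.587). Pole, the catalytic subunit of polymerase epsilon, had 17.7, 16, 12.1 and 14.3 CPM in the air spleens and 20.2, 32.5, 17.2 and 15.3 CPM in the PM2.5 spleens (log2 fold change 0.50, SE 0.25, adjusted p = 0.335). Its PM2.5 replicates 1 and 2 were above all air libraries. Pola2 and Prim2 overlapped in both experiments, Pola2 at 34.5 to 37.7 CPM in macrophage air and 34.2 to 43.1 in macrophage PM2.5, and Prim2 at 9.4 to 11.5 and 10.2 to 14.4 CPM.

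Pcna, the sliding clamp, had the highest level of all members by CPM and a small difference in macrophages. Pcna had 135, 146, 128, 148 and 148 CPM in the macrophage air libraries and 166, 165, 165, 141 and 168 CPM in the macrophage PM2.5 libraries. PM2.5 replicate 4 lay among the air libraries and the other 4 lay above them (log2 fold change 0.19, SE 0.07, adjusted p = 0.390). Pcna had 242, 160.5, 207 and 161 CPM in the air spleens and 149, 294, 162 and 173 CPM in the PM2.5 spleens, with air replicate 1 next to PM2.5 replicate 2 at the top. Its pseudogene Pcna-ps2 held 460 counts over all libraries against 65233 of Pcna. Rfc4, a subunit of the complex that loads the clamp, separated fully in macrophages. Rfc4 had 7.14, 7.25, 7.23, 9.66 and 8.86 CPM in the macrophage air libraries and 15.4, 10.8, 12.1, 11.7 and 10.5 CPM in the macrophage PM2.5 libraries. Replicate 1 of the PM2.5 group was highest and stood apart from the other 4, which were close to each other (log2 fold change 0.59, SE 0.13, adjusted p = 0.258). Rfc4 (ENSMUSG00000022881, chr16:23113943-23127737, minus strand) had 17.9, 16, 16.9 and 8.55 CPM in the air spleens and 12.9, 24.6, 15.8 and 10.3 CPM in the PM2.5 spleens, where air replicate 4 was lowest. Rpa2, a subunit of the single-strand binding protein, had 17.1, 19.5, 16.2, 18.1 and 16.9 CPM in macrophage air. Its macrophage PM2.5 libraries had 27.5, 21.9, 21.5, 19.4 and 22.3 CPM, and PM2.5 replicate 4 alone kept the groups in contact (log2 fold change 0.36, SE 0.10, adjusted p = 0.287). Rpa2 had 52.2, 41.2, 39.4 and 58.2 CPM in the air spleens and 36.5, 55.4, 41.9 and 46.4 CPM in the PM2.5 spleens, with no separation. Rfc3 was at 24.6 to 40.4 CPM in spleen air and 25.0 to 27.8 in spleen PM2.5, and Rfc5 at 27.6 to 36.5 and 23.6 to 38.6 CPM. This was the role with the lowest median log2 fold change in spleen, at -0.08, and 3 of its 5 genes were negative there.

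Exo1, an exonuclease that acts in mismatch repair and at forks, was a low level member that separated in macrophages. Exo1 had 2.33, 3.54, 2.20, 3.91 and 3.03 CPM in the macrophage air libraries and 4.24, 6.70, 6.42, 4.71 and 4.24 CPM in the macrophage PM2.5 libraries. Every PM2.5 library was above air replicate 4, the highest air library (log2 fold change 0.82, SE 0.21, adjusted p = 0.267). Exo1 had 6.11, 6.74, 3.38 and 6.61 CPM in the air spleens and 4.02, 12.7, 4.56 and 8.18 CPM in the PM2.5 spleens, with PM2.5 replicates 2 and 4 highest. Lig1, the ligase that seals Okazaki fragments, was the most abundant gene of this role by CPM. Lig1 had 32.0, 40.0, 27.5, 49.0 and 36.8 CPM in the macrophage air libraries and 46.1, 49.3, 53.2, 40.6 and 56.9 CPM in the macrophage PM2.5 libraries. Air replicate 4 lay among the PM2.5 libraries (log2 fold change 0.41, SE 0.15, adjusted p = 0.360). Lig1 had 36.4, 48.1, 32.2 and 42.8 CPM in the air spleens and 41.4, 112, 35.7 and 54.3 CPM in the PM2.5 spleens (log2 fold change 0.61, SE 0.32, adjusted p = 0.364). Replicate 2 was at least 2 times the level of every other spleen library. Fen1, the flap endonuclease of Okazaki fragments, was at 4.27 to 6.47 CPM in macrophage air and 6.04 to 8.59 in macrophage PM2.5 (log2 fold change 0.37), but 84.2% of its exon bases overlap Gm10143 and Tmem258 on the other strand.

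The nucleotide supply genes ranged in macrophages from a log2 fold change of 0.08 for Tk1 to 0.81 for Tyms. Dut, which hydrolyses dUTP and so keeps uracil out of DNA, separated fully in macrophages. Dut had 16.9, 17.9, 13.2, 20.9 and 13.6 CPM in the macrophage air libraries and 34.5, 26.3, 27.2, 24.1 and 23.7 CPM in the macrophage PM2.5 libraries. All 5 PM2.5 libraries exceeded the highest air library, and replicate 1 with the air tag was the highest of the 10 (log2 fold change 0.72, SE 0.14, adjusted p = 0.258). Dut (ENSMUSG00000027203, chr2:125247190-125258608, plus strand) had 61.3, 54.7, 56.7 and 68.8 CPM in the air spleens and 36.3, 78.2, 38.1 and 43.4 CPM in the PM2.5 spleens. PM2.5 replicates 1, 3 and 4 were below all 4 air spleens, and only replicate 2 was above them. Tyms, which makes dTMP, separated too. Tyms had 6.49, 9.90, 5.65, 9.47 and 9.79 CPM in the macrophage air libraries and 14.7, 15.2, 13.8, 12.1 and 16.4 CPM in the macrophage PM2.5 libraries. The lowest PM2.5 library, replicate 4, exceeded air replicate 2, the highest of its group (log2 fold change 0.81, SE 0.17, adjusted p = 0.258). Tyms (ENSMUSG00000025747, chr5:30058202-30073617, minus strand) had 17.7, 16, 14.4 and 15 CPM in the air spleens and 13.7, 41.3, 14.4 and 17.1 CPM in the PM2.5 spleens, with 7 spleens close together and replicate 2 far above. DESeq2 gave an adjusted p of 0.00317 for Tyms and 0.00351 for Dut in macrophages. Over the alternatives the adjusted p ranged from 0.00317 to 0.537 for Tyms and from 0.00351 to 0.697 for Dut. Rrm1, the large subunit of ribonucleotide reductase, had 57.6, 71.6, 45.6, 72.0 and 78.1 CPM in macrophage air. Its PM2.5 libraries there had 79.3, 92.1, 94.9, 75.2 and 103 CPM, and only replicate 4 was under the highest air library (log2 fold change 0.45, SE 0.14, adjusted p = 0.312). Rrm1 had 87.1, 80.6, 74.5 and 67.1 CPM in the air spleens and 68.7, 226, 64.5 and 85.9 CPM in the PM2.5 spleens, where replicate 2 was at least 2 times every other library. Rrm2, the small subunit and the one regulated over the cell cycle, had a wide spread. Rrm2 had 29.9, 54.3, 17.9, 52.6 and 71.1 CPM in the macrophage air libraries and 49.8, 85.4, 85.8, 54.6 and 108 CPM in the macrophage PM2.5 libraries. Air replicate 5 was above PM2.5 replicates 1 and 4 (log2 fold change 0.77, SE 0.33, adjusted p = 0.429). Rrm2 (ENSMUSG00000020649, chr12:24708241-24714146, plus strand) had 50.8, 44.9, 27.7 and 30.1 CPM in the air spleens and 38.7, 234, 35.7 and 57.5 CPM in the PM2.5 spleens (log2 fold change 1.25, SE 0.54, adjusted p = 0.278). Tk1, thymidine kinase of the salvage route, had 35.1, 46.0, 35.5, 41.7 and 42.3 CPM in macrophage air and 37.4, 42.8, 43.4, 37.1 and 51.0 CPM in macrophage PM2.5. These groups overlapped almost fully (log2 fold change 0.08, SE 0.11, adjusted p = 0.810). Tk1 had 36.8, 40.1, 30.8 and 32.5 CPM in the air spleens and 36.7, 80.1, 44.6 and 43.2 CPM in the PM2.5 spleens (log2 fold change 0.54, SE 0.23, adjusted p = 0.262), and PM2.5 replicates 2, 3 and 4 were above all air spleens.

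Chaf1a and Chaf1b, which place histones on new DNA, and Uhrf1, which reads hemimethylated DNA and recruits the maintenance methyltransferase, all had an unadjusted p under 0.05 in macrophages. Uhrf1 had 34.7, 39.9, 26.9, 45.5 and 43.4 CPM in the macrophage air libraries and 34.1, 56.5, 58.9, 45.8 and 63.5 CPM in the macrophage PM2.5 libraries. PM2.5 replicate 1 was within the air range and the other 4 were above it (log2 fold change 0.45, SE 0.18, adjusted p = 0.396). Uhrf1 had 44.7, 54.6, 39.0 and 52.3 CPM in the air spleens and 45.3, 135, 43.9 and 52.7 CPM in the PM2.5 spleens, with replicate 2 alone outside the range of the others. Chaf1b was at 3.55 to 7.54 CPM in macrophage air and 7.48 to 9.27 in macrophage PM2.5 (log2 fold change 0.72, SE 0.18, adjusted p = 0.267), and DESeq2 called it. Chaf1a was at 8.88 to 17.6 and 17.4 to 19.7 CPM, although 52.5% of its exon bases overlap Ubxn6 on the opposite strand.

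Of the genes that start S phase, Ccne1 had the largest log2 fold change of the set in macrophages and E2f1 one of the smallest. Ccne1, cyclin E1, activates Cdk2 at the start of S phase. Ccne1 had 7.76, 9.79, 4.30, 13.1 and 12.7 CPM in the macrophage air libraries and 20.3, 18.5, 19.2, 14.0 and 20.4 CPM in the macrophage PM2.5 libraries. All PM2.5 libraries were above all air libraries, and air replicate 3 was lowest (log2 fold change 0.97, SE 0.25, adjusted p = 0.272). Ccne1 (ENSMUSG00000002068, chr7:38097984-38107534, minus strand) had 22.6, 23.3, 27.4 and 28.4 CPM in the air spleens and 19.5, 52.9, 21.6 and 22.5 CPM in the PM2.5 spleens, where PM2.5 replicates 1, 3 and 4 lay under every air library. Ccne2, cyclin E2, had 5.98, 10.1, 4.48, 7.87 and 12.3 CPM in macrophage air and 7.81, 11.8, 13.8, 7.86 and 16.6 CPM in macrophage PM2.5. The ranges overlapped over most of their length (log2 fold change 0.52, SE 0.29, adjusted p = 0.538). Ccne2 had 10.4, 10.1, 9.15 and 10.4 CPM in the air spleens and 9.4, 36.1, 8.18 and 13.1 CPM in the PM2.5 spleens (log2 fold change 0.74, SE 0.42, adjusted p = 0.404). E2f1 is the founding member of the E2F transcription factors. E2f1 had 18.4, 24.9, 19.2, 22.9 and 22.7 CPM in the macrophage air libraries and 19.5, 25.2, 24.5, 22.7 and 27.0 CPM in the macrophage PM2.5 libraries, with PM2.5 replicate 1 near the lowest air value (log2 fold change 0.14, SE 0.11, adjusted p = 0.669). E2f1 (ENSMUSG00000027490, chr2:154559407-154569892, minus strand) had 9.69, 13.3, 10.4 and 13.6 CPM in the air spleens and 11.9, 31.2, 18 and 20.5 CPM in the PM2.5 spleens. PM2.5 replicates 2, 3 and 4 were above all air spleens and replicate 1 was within their range (log2 fold change 0.79, SE 0.27, adjusted p = 0.188). Clspn, claspin, the adaptor through which stalled forks activate Chk1, had 6.96, 11.2, 4.82, 16.3 and 12.5 CPM in macrophage air. Its macrophage PM2.5 libraries had 11.8, 17.2, 18.4, 17.0 and 20.9 CPM, and air replicates 4 and 5 were inside their range (log2 fold change 0.73, SE 0.28, adjusted p = 0.389). Clspn had 15.6, 13.5, 6.35 and 11.1 CPM in the air spleens and 12.6, 42.4, 8.18 and 13.0 CPM in the PM2.5 spleens, with replicate 2 alone above the air range.

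**Figure D2:**
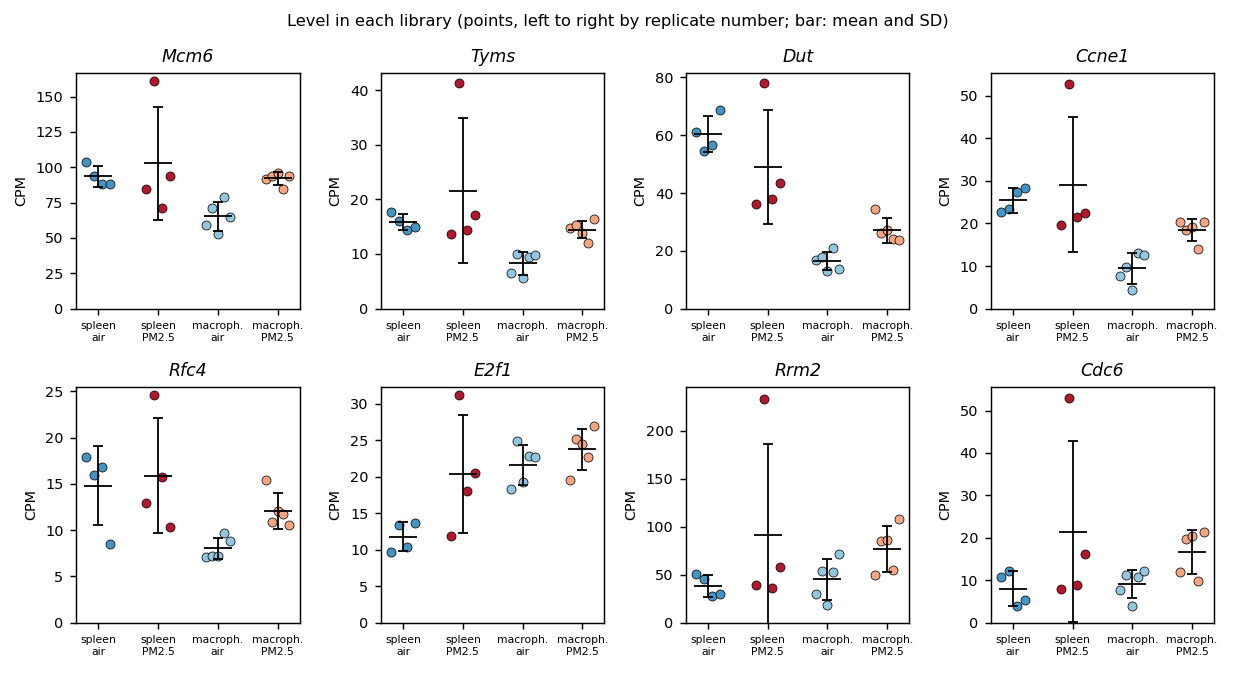
CPM of 8 replication genes in each library (points, left to right by replicate number), with the mean and SD of each group as bars. The y axes start at 0. Mcm6, Tyms, Dut, Ccne1 and Rfc4 separate fully between macrophage air and PM2.5, and in spleen PM2.5 1 library, replicate 2, is the highest point of all 8 panels.

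Seen by library, the macrophage difference was spread over the PM2.5 group. The 42 genes summed to 1025, 1198, 917, 1350 and 1195 CPM in the 5 air libraries and to 1361, 1509, 1556, 1330 and 1630 CPM in the 5 PM2.5 libraries, so that only PM2.5 replicate 4 lay below the highest air library. Air replicate 4 had the highest value of its group for 29 members and air replicate 3 the lowest for 33. In the PM2.5 group, replicate 5 was highest for 23 members and replicate 4 lowest for 20. Replicate 1, the library with the air tag, was lowest for 15 and highest for 7, namely Dut, Rfc4, Rfc5, Rpa2, Cdc45, Gins1 and Gins2. The members made up between 0.0918% and 0.137% of all counts in air and between 0.129% and 0.165% in PM2.5.

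**Figure D3:**
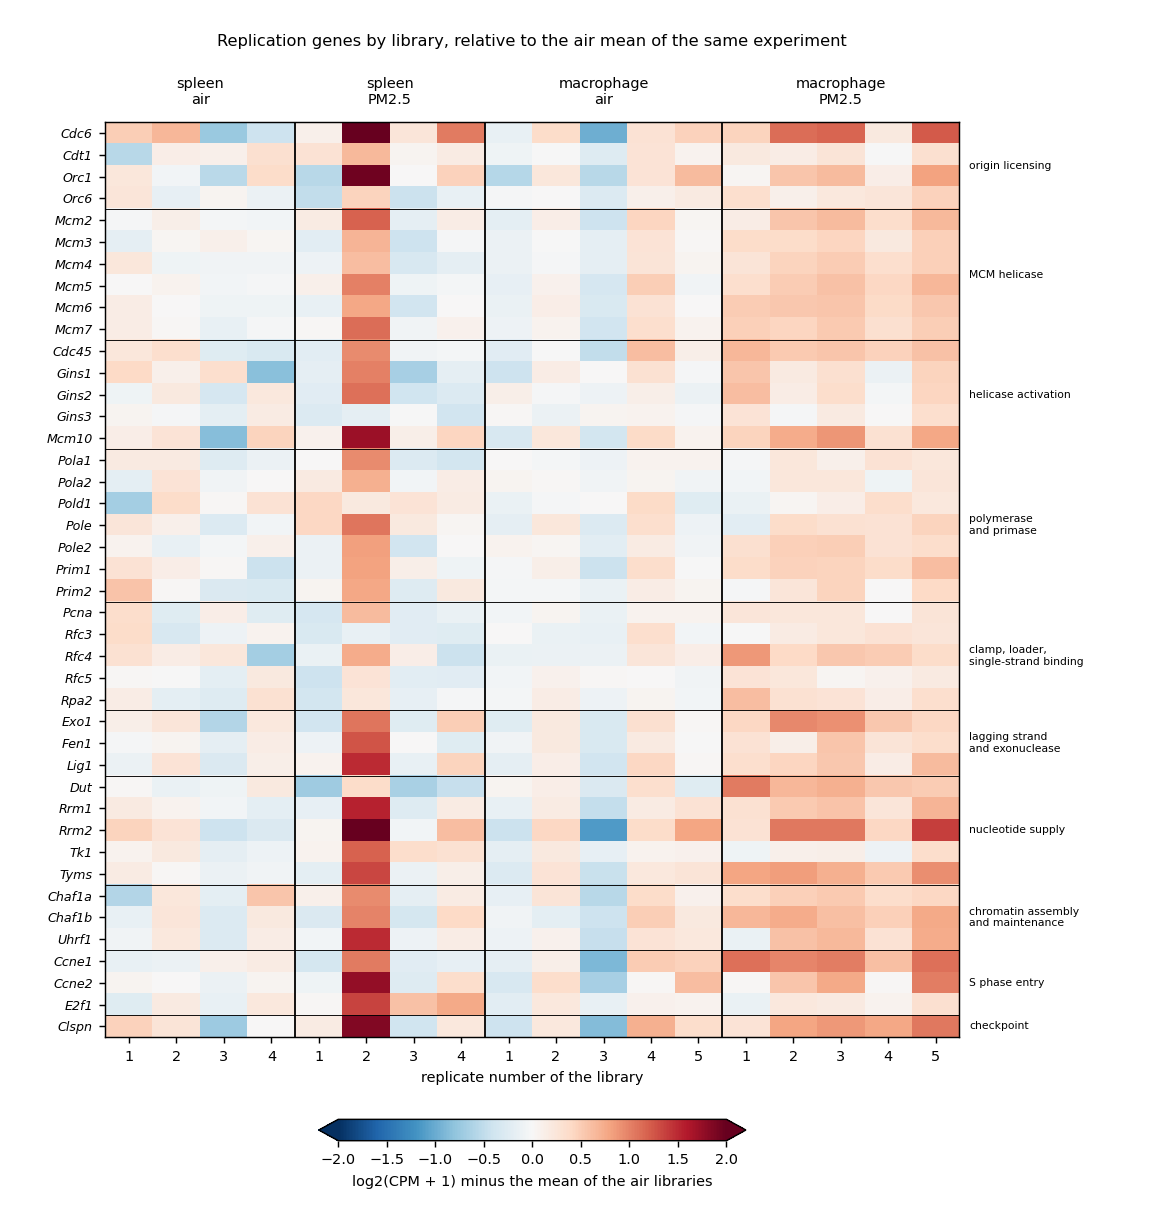
Difference of log2(CPM + 1) from the air mean of the same experiment (colour) for the 42 genes (rows, by role) in the 18 libraries (columns, by group and replicate number). The macrophage PM2.5 columns are mostly above the air mean, with 33, 41, 42, 37 and 42 of 42 genes above it, while in spleen PM2.5 the colour is concentrated in replicate 2.

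Markers of other cells differed between the same macrophage groups, and their part in the result was not tested. Of all tested genes, 51.4% were higher there after PM2.5, and 6.24% were higher at an unadjusted p under 0.05. Of 12 plasma cell markers, 11 were higher after PM2.5 and 9 of them at an unadjusted p under 0.05, and their summed level was between 819 and 2264 CPM in air and between 1407 and 4414 CPM in PM2.5. All 19 erythroid markers had a positive log2 fold change but 1 had an unadjusted p under 0.05, with sums between 252 and 2822 CPM in air and between 1014 and 3106 CPM in PM2.5. Of the 11 granulocyte precursor markers 8 were tested and all 8 were higher, 7 at an unadjusted p under 0.05, with sums of 22.5 to 66.6 CPM and 56.8 to 165 CPM. Germinal centre B cell markers were higher in 8 of 10, 5 of them at that threshold, yet their sum was 728 to 917 CPM after air and 653 to 795 CPM after PM2.5. Plxnb2, which holds most of that sum, had 656 ± 85.2 and 540.0 ± 92.5 CPM (SD, n = 5 each). T cell markers were higher in 8 of 10, with 3 at that threshold and sums of 172 to 223 CPM and 169 to 212 CPM. B cell markers were higher in 8 of 10 with 0 at that threshold, and summed to 2644 to 4042 CPM and 3040 to 4587 CPM. Of 15 macrophage markers 13 were lower, 4 of them at an unadjusted p under 0.05. Progenitor markers were higher in 3 of the 7 tested and summed to 123 to 234 CPM after air and 112 to 154 CPM after PM2.5. None of these markers was at 0 in a group, and Ttr, Serpina1a and Fgb of the liver list were at 0 in both macrophage groups. The highest plasma marker sums, 4414 and 3921 CPM, were those of PM2.5 replicates 1 and 4, which were the libraries with the lowest members of that group most often.

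In whole spleen, 36 of the 42 genes had a positive log2 fold change and 6 a negative one (Dut, Rfc3, Gins3, Rfc5, Orc6 and Rpa2), with a median of 0.27 against 0.02 over all 16551 genes. Genes with a positive value made up 51.8% of all tested genes. No member passed the adjusted threshold, where 0.0121% of all tested genes did, and DESeq2 called 0 members and 5.09% of all genes, and limma-voom called 0. E2f1, Tk1, Cdc6 and Rrm2 were higher at an unadjusted p under 0.05, which is 9.52% of the members beside 8.93% of all tested genes. For 0 of the 42 did the PM2.5 libraries all lie above the air libraries, as in 4.41% of all genes.

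A single spleen carried most of the difference. PM2.5 replicate 2 had the highest level of the 8 spleens for 38 of 42 members, was at least 1.5 times the next library for 26 and at least 2 times for 12. The 42 genes summed to 3103 CPM in it and to between 1399 and 1643 CPM in the other 7. Without it, 16 of 42 genes had a positive log2 fold change, beside 54.7% of all genes, and the median was -0.03, against a median of 0.04 over all genes in that comparison. The mean of PM2.5 replicates 1, 3 and 4 was below the air mean for 29 of the 42. In a fit of all 18 libraries E2f1 passed in spleen (adjusted p = 0.0347, with a range of 0.0347 to 0.714 over its alternatives), a fit that called 1 of the 42 members and 5.91% of all genes. Without replicate 2 the log2 fold change of E2f1 was 0.54, of Tk1 0.27, of Cdc6 0.48 and of Rrm2 0.23. Leaving out replicates 2 and 4 gave 11 positive genes, beside 53.8% of all genes, and a median of -0.13.

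**Figure D4:**
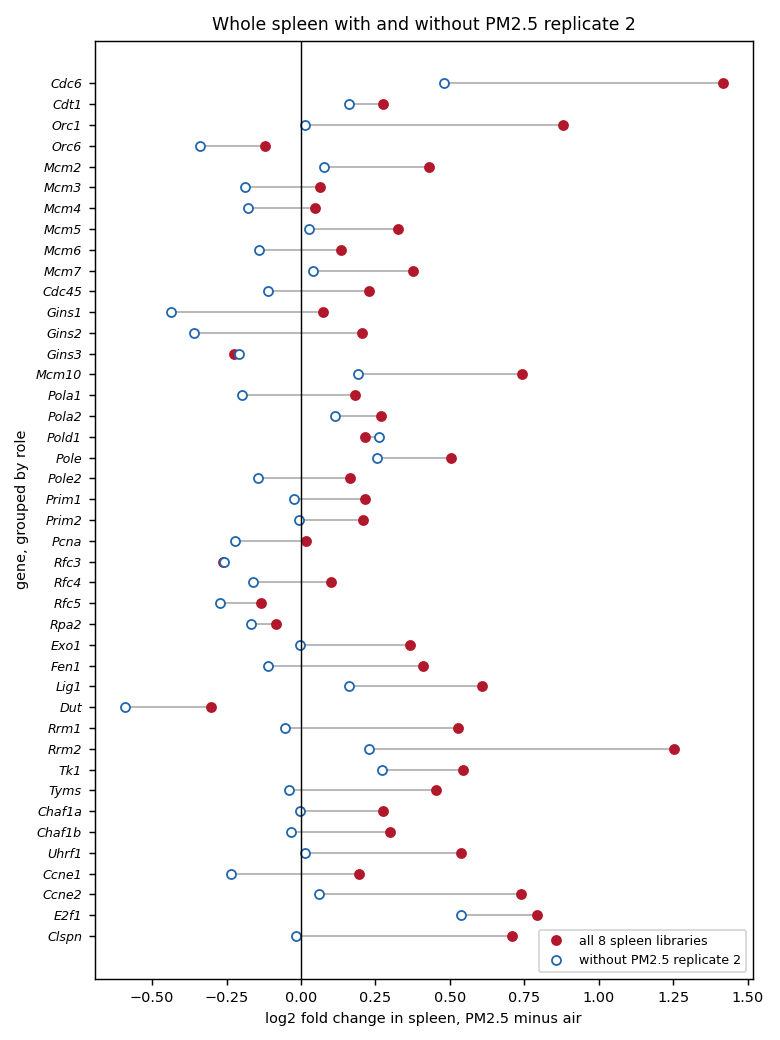
Log2 fold change in spleen (x axis, PM2.5 minus air) of each of the 42 genes (y axis, by role) with all 8 spleens (filled) and without PM2.5 replicate 2 (open). The number of genes right of zero drops from 36 to 16.

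The same library stood apart in erythroid markers. The 19 erythroid markers summed to 257, 60.3, 60.5 and 79.9 CPM in spleen air and to 109.6, 5208, 536 and 1341 CPM in spleen PM2.5. All 19 were higher at an unadjusted p under 0.05, beside 8.93% of all tested genes (median log2 fold change of the 19, 4.34). Slc4a1, the anion exchanger of red cells, had 9.29 ± 9.57 CPM in spleen air and 409 ± 576 CPM in spleen PM2.5 (SD, n = 4 each). Yet PM2.5 replicate 4, with the next highest erythroid sum, had a members' sum of 1607 CPM, within the air range. The plasma marker sum of replicate 2 was 1536 CPM, against 979 to 1312 CPM in the other PM2.5 spleens, and its granulocyte precursor sum, 12.2 CPM, was the lowest of its group. Mesothelial markers were higher in 8 of 8 in spleen PM2.5 (3.87 to 7.06 CPM summed after air, 46.1 to 287 after PM2.5), macrophage markers in 15 of 15 (651 to 1079 and 989 to 1395 CPM) and progenitor markers in 8 of 8 (125 to 146 and 168 to 195 CPM). B cell markers were lower in 10 of 10 (7132 to 8371 and 5285 to 7247 CPM) and T cell markers in 9 of 10 (1430 to 2012 and 1099 to 1525 CPM). Germinal centre B markers were higher in 4 of 10 and plasma markers in 7 of 12, and liver markers summed to at most 99.3 CPM, in air replicate 4. Of all tested genes, 51.8% were higher in spleen PM2.5. The part of these cells in the spleen values was not tested. In macrophages the erythroid sum and the members' level were also both lowest in air replicate 3, while air replicate 5 had 2822 erythroid CPM with a members' median 0.06 above the air mean on the log2 scale.

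**Figure D5:**
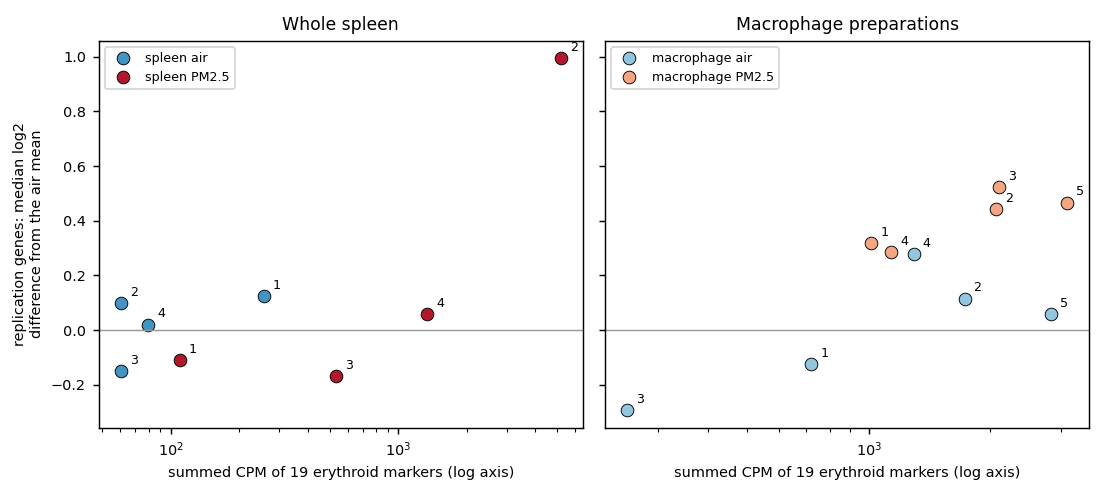
Summed CPM of 19 erythroid markers (x axis, log scale) and the median over the 42 genes of log2(CPM + 1) minus the air mean (y axis), 1 point per library, numbered by replicate, for spleen (left) and macrophages (right). Spleen PM2.5 replicate 2 is alone at the upper right with 5208 CPM and 0.99. On the y axis the 5 macrophage PM2.5 libraries lie between 0.29 and 0.52 and the 5 macrophage air libraries between -0.29 and 0.28. Air replicate 4 is the highest of the air libraries and lies next to PM2.5 replicate 4.

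Whether the PM2.5 effect differed between macrophages and spleen was tested as the difference of both effects in a fit of all 18 libraries. No member passed the adjusted threshold, where 1.46% of 17779 genes did. At an unadjusted p under 0.05, Dut, Gins3, Rfc3 and Rpa2 had a higher effect in macrophages (10.3% of all genes were higher at that threshold) and E2f1 a lower one (10.3% were lower). The difference was positive for 26 of the 42, against 47.3% of all genes, with a median of 0.15 against -0.03. Dut stood first, with a log2 difference of 1.02 (SE 0.27, adjusted p = 0.0595), its mean being higher after PM2.5 in macrophages and lower in spleen. DESeq2, which called 5.89% of all genes, called Dut alone among the members (adjusted p = 0.0181). In edgeR Dut passed without spleen PM2.5 replicate 2 (log2 difference 1.32, adjusted p = 0.00725), without spleen air replicate 2 (1.07, 0.0348) and without spleen PM2.5 replicates 2 and 4 (1.40, 0.0156). Over all alternatives its adjusted p lay between 0.00725 and 0.407, the last with the air-tagged library counted as air. E2f1 had a log2 difference of -0.66 (SE 0.28, adjusted p = 0.193), being higher in spleen PM2.5 and close between the macrophage groups. Rpa2 had 0.44 (SE 0.19, adjusted p = 0.208), and Rfc3 and Gins3 had 0.44 and 0.40. Pola1, Clspn and Mcm10 had the 3 largest p-values, with log2 differences between -0.05 and 0.02 and SEs between 0.29 and 0.57, which leaves the differences of Clspn and Mcm10 poorly determined. Without spleen PM2.5 replicate 2, 20 members had a higher effect in macrophages at an unadjusted p under 0.05 instead of 4, beside 10.5% of all genes.

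Other genes of replication, not in the set, were also mostly higher in macrophages. Of 50 such genes 48 were higher after PM2.5, beside 51.4% of all genes. At an unadjusted p under 0.05, 24 were higher, beside 6.24% of all genes, and 0 lower. In edgeR 0 passed the adjusted threshold, and in DESeq2 9 did, beside 1.13% of all genes. Among those with the smallest p were Nasp, a histone chaperone, at 31.8 ± 1.48 CPM after air and 42.1 ± 5.15 CPM after PM2.5 (SD, n = 5 each), Gmnn, the inhibitor of Cdt1 (11.8 ± 1.12 and 16.7 ± 2.12), and Dbf4, the activator of the Cdc7 kinase (20.7 ± 1.45 and 26.2 ± 1.77). In spleen 26 of these 50 were higher, beside 51.8% of all genes. At an unadjusted p under 0.05, 6 were higher (12%, beside 8.93% of all genes) and 2 were lower. The 4 with the smallest p were Ticrr, Atad2, Brca1 and, with a lower mean, Pole4. PM2.5 replicate 2 was the highest spleen for Ticrr, Atad2 and Brca1. For Brca1 it held 42.2 CPM, against at most 15.7 CPM in the other spleens. For the difference of effects 8 of the 50 were higher and 1 lower at that p threshold, beside 10.3% of all genes in each direction. Cdca7, Rpa1 and Nasp were among the genes of smallest p. Rpa1, the large partner of Rpa2, had 77.3 ± 5.78 CPM in macrophage air and 92.3 ± 3.48 CPM in macrophage PM2.5, and 178 ± 22.8 and 147 ± 29.6 CPM in spleen (SD, n = 4 each).

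Of 22 genes of the E2F and Rb circuit, 16 were higher in macrophages, beside 51.4% of all genes. At an unadjusted p under 0.05, 3 were higher, beside 6.24% of all genes, and 1 lower. Tfdp1, the partner of E2F proteins, had 48.4 ± 4.87 CPM in macrophage air and 61.7 ± 3.62 CPM in macrophage PM2.5, and Mybl2 and Cdc25a were also higher. Ccnd1, cyclin D1, had the lower mean after PM2.5, 108 ± 32.2 against 71.8 ± 10.6 CPM. In spleen 3 were higher at that threshold (13.6%, beside 8.93% of all genes) and 1 lower, with Tfdp2, Ccna2, E2f8 and, lower, Ccnd2 in front. For the 3 higher genes PM2.5 replicate 2 was the highest spleen. Replicate 2 held 146, 169 and 45.8 CPM, against at most 54.3, 51.7 and 12.8 CPM in the other spleens. For the difference of effects 0 were higher and 2 lower at that threshold, beside 10.3% of all genes in each direction. Of 16 CDK inhibitor and checkpoint genes, 8 were higher in macrophages, beside 51.4% of all genes. Of the 16, 3 (Chek1, Wee1 and Cdkn2c) were higher at an unadjusted p under 0.05, beside 6.24% of all genes. Chek1, the kinase that claspin serves, had 3.23 ± 1.07 and 5.71 ± 0.617 CPM there. In spleen 0 were higher at that threshold, beside 8.93% of all genes, and 1, Btg1, was lower. For the difference 0 passed it in either direction, beside 10.3% of all genes each way. Of 26 genes of G2 and mitosis all were higher in both experiments, beside 51.4% of all genes in macrophages and 51.8% in spleen. At an unadjusted p under 0.05, 16 were higher in macrophages (beside 6.24% of all genes) and 4 in spleen (beside 8.93%). For the difference 0 passed that threshold in either direction, beside 10.3% of all genes each way. Bub1, a spindle checkpoint kinase, had 7.59 ± 2.1 and 13.1 ± 2.13 CPM in macrophages, and Mki67, the proliferation marker, 122 ± 24.1 and 306 ± 317 CPM in spleen. The 26 genes summed to between 444 and 679 CPM in spleen air and to 564, 2376, 599.8 and 755 CPM in spleen PM2.5, the second being replicate 2. Their log2 fold changes in spleen without that library are not reported here. None of the 4 lists had a gene past the adjusted threshold in edgeR.

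Levels of the members were compared with each other per kilobase of the principal transcript, on CPM scaled over all 18 libraries. Pcna led in all 4 groups, with 102 ± 6.47 CPM per kb in macrophage air (SD, n = 5) and 114 ± 24.3 in spleen air (SD, n = 4). In macrophage air Tk1 (30.5 ± 3.57) came next, followed by Mcm6 (24.5 ± 3.85), Pold1 (22.8 ± 3.99), Rrm2 (22.5 ± 10.5) and Mcm7 (21.4 ± 3.84), and neighbours from Mcm6 to Mcm7 did not differ beyond their SDs. In spleen air Mcm6 (28.8 ± 2.57), Mcm7 (27.8 ± 2.69), Dut (27.7 ± 2.65) and Mcm3 (27.6 ± 2.12) followed Pcna within each other's spread. Orc1, Gins2 and Exo1 were among the 4 lowest in each of the 4 groups, with Exo1 last at 0.42 ± 0.10 CPM per kb in macrophage air. The rank of Gins2 is uncertain, since 67.3% of its exon bases overlap Gse1 and no strand setting is stated. Between the preparations in air, 28 of the 42 were higher in spleen, beside 8885 of all 17779 tested genes, with a median ratio of spleen to macrophage of 1.12. All air spleens were above all air macrophage libraries for 10 members, beside 26.3% of all genes, and below them for 3, beside 29.9%. Dut had 2.99 times the macrophage mean in spleen, Rpa2 and Rfc3 2.23 times, Ccne1 2.19 times and Orc6 2.13 times. Tk1, Pola1 and E2f1 were the 3 that were higher in macrophages without overlap, with ratios of 0.72, 0.49 and 0.44. Material and experiment cannot be told apart in these ratios, and they were not tested.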

How the data were processed

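RNA of 8 whole spleens and 10 splenic macrophage preparations was sequenced as polyadenylated RNA after Qiagen RNeasy extraction and NEBNext Ultra II library preparation, per the labels' protocols. The authors deposited 1 table of raw read counts per Ensembl gene, and its unit was also checked on the values, which are whole numbers. FastQC 0.10.1 and HTSeq 0.10.0 and the builds mm10 and GRCm38 are named in the submitters' processing notes. For the aligner, annotation release and strand setting: not given in the sources used here. Of 55414 identifiers, 52133 matched GENCODE M21, and the others held 0.303% of the counts.

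Each experiment was fitted alone with edgeR 4.0.16 in R 4.3.3 (quasi-likelihood test, two-sided, TMM scaling, filter at a minimum count of 10 and a total of 15), and the difference of effects as a contrast in a fit of 18 libraries. Every adjusted p is from edgeR unless another tool is named, by Benjamini-Hochberg over all tested genes, with a threshold of 0.05. DESeq2 1.42.0 and limma-voom (limma 3.58.1) were alternatives, with other scalings, filters, a replicate block, regrouping of the library with the air tag and left-out libraries. The members and lists were chosen with earlier results of these data known. Values by library are given for the 8 members with the smallest p in each experiment and the most abundant of each role. They are also given for the 3 members with the smallest and the 3 with the largest p for the difference. For the 4 genes of smallest p in each other list, means are given, with values of spleen PM2.5 replicate 2 for some. Means ± SD are over libraries. No 2 libraries agreed within sampling noise, the smallest chi-square per degree of freedom being 12.3.

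On simulated counts with planted changes, the macrophage test recovered 41.8% of 1.5-fold, 79.1% of 2-fold and 93.9% of 4-fold changes among 15509 genes. The spleen test recovered 2.99%, 35.8% and 63.6% among 16057 genes, and the difference 4.48%, 23.9% and 69.7% among 17409. Each simulated gene was drawn independently, unlike the members, which moved together. These shares therefore describe the simulated counts only. Lin54 and Chtf8 of the other lists were not analysed here. Some genes that the naming rule selects from the other lists are not reported here.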

Additional observations from a re-analysis of the deposited data

Results flagged for a closer look

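For each member in each of the 4 groups, 168 cases in all, the highest or lowest library was tested for its distance from the others, and 19 stood apart by Dixon's criterion. Chance gives about 1 in 20 groups for a single gene, but the members share libraries and moved together. The 168 cases are therefore not independent, and the 19 cannot be set against that rate. In 15 of the 19 the library was spleen PM2.5 replicate 2, as the highest of its group. Its levels were 140.4 CPM for Mcm2, 139.0 for Mcm5, 200.2 for Mcm7 and 32.6 for Mcm10 among the helicase genes. They were 22.7 CPM for Cdc45, 12.2 for Gins2, 294.1 for Pcna and 16.1 for Fen1 among the fork genes. Among nucleotide genes they were 41.3 CPM for Tyms, 226.4 for Rrm1, 233.7 for Rrm2 and 78.2 for Dut. Uhrf1 was at 134.8 CPM, Ccne1 at 52.9 and Clspn at 42.4 in that library. The other 4 were single genes in different libraries. Mcm4 was highest in spleen air replicate 1 (98.5 CPM) and Rfc3 highest in macrophage air replicate 4 (14.8 CPM). Pcna was lowest in macrophage PM2.5 replicate 4 (141.4 CPM) and Pole lowest in macrophage PM2.5 replicate 1 (12.8 CPM).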

How the results depend on the processing

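The 42 positive log2 fold changes in macrophages held in all 19 alternatives, with a median between 0.34 and 0.51. Their number called was 0 in edgeR and 12 in DESeq2, beside 0.0% and 1.13% of all tested genes. The 29 higher at an unadjusted p under 0.05 (6.24% of all genes) became 17 in the fit of 18 libraries (4.12%). They became 21 to 35 with 1 library left out (4.03% to 7.09%). With the air-tagged library counted as air they became 22, beside 618 of all 16019 genes. Full separation held for 8 members (1.41% of all tested genes) and for 5 with the air-tagged library counted as air (1.15%). It held for 8 to 18 with 1 library left out (1.73% to 3.6%). In spleen the 4 members at an unadjusted p under 0.05, all higher, became 1 in limma-voom, 10 with no filter and 7 in the joint fit. Over all genes, 2763 of 16551 were under it in the main fit and 2636 of 16551 in limma-voom. With no filter 3796 of 29784 were, and in the joint fit 4312 of 17779. The number of members was 0 without air replicates 3 and 4 (1277 of 17988 genes). It was 1 to 7 in either direction with 1 library left out (1942 to 3420 genes). Without PM2.5 replicates 2 and 4 there were 2 such members (1538 of 17691 genes), of which 0 were higher. Without replicate 2 alone there were 2 (2594 of 16994 genes), of which 1 was higher. In the joint fit 1 member was called, beside 5.91% of all genes. The spleen median of 0.27 was -0.13 without PM2.5 replicates 2 and 4 and -0.0283 to 0.37 with 1 library left out. The positive genes were 11 and 16 to 37, and the separated ones 0 to 2 with 1 library left out. Without replicates 2 and 4, Rrm2 (-0.0181), Lig1 (-0.0290) and Ccne2 (-0.16) turned negative, and the cause was not tested. For the difference, 1 member was called in DESeq2 (5.89% of all genes) and 1 without spleen PM2.5 replicates 2 and 4 (48 of 18891 genes). With 1 library left out 0 to 1 were called, beside 68 to 1317 genes. The median difference of 0.15 was 0.62 without replicates 2 and 4 and 0.02 to 0.48 with 1 left out. The difference had 5 members at an unadjusted p under 0.05, beside 3662 of 17779 genes. They became 3 in DESeq2 (3810 genes), 3 with no filter (4988 of 33487) and 3 with the replicate block (3359). With the air-tagged library as air they became 1 (2318 genes). They became 17 without replicates 2 and 4 (3356 of 18891) and 1 to 20 with 1 left out (3148 to 4536). Same-numbered libraries had correlations of deviations between -0.15 and 0.08 in spleen and between -0.16 and 0.37 in macrophages, where only replicates 4 (0.37) and 5 (0.33) were above 0.1 and correlated best with their own number, so the replicate numbers were not taken as pairs. With the replicate block 0 members were called in each comparison, with medians of 0.25 in spleen, 0.44 in macrophages and 0.23 for the difference. Members had 46 or more counts in each library, and groups hold 4 or 5 libraries.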

Other observations

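Genes outside all lists were ranked by how closely their log2(CPM + 1) followed the mean of the members over libraries. These are descriptions over few points that share libraries and depth. Over the 10 macrophage libraries the highest Pearson correlations were those of Fam83d (0.978), Pabpc4 (0.978), Cks2 (0.970), Pfkm (0.966) and Ska1 (0.962), followed by Nuf2, Ncaph, Kif15, Gtse1 and Ndc80, the last at 0.946. Fam83d, Ska1, Nuf2, Kif15, Gtse1 and Ndc80 are known for work on the mitotic spindle or kinetochore, and Ncaph is a condensin subunit. Pfkm, a phosphofructokinase of glycolysis, had a mean of 4.49 CPM after air and 7.78 CPM after PM2.5, and Pabpc4, a poly(A) binding protein, had 112 and 146 CPM. Over the 8 spleen libraries Gm11427 (0.985), Tacc3 (0.981), Dclre1a (0.976), Eme1 (0.976) and Tubb4b (0.975) came first, followed by Asb1, Nuf2, Ckap2, Cdkn3 and Gpsm2 (0.969). Spleen PM2.5 replicate 2 is the highest spleen for 38 of the 42 members, which bears on all spleen correlations, and Nuf2 is in the first 10 of both experiments. The likeness of single members to the mean of the other members ran from 0.40 to 0.98 in macrophages and from -0.09 to 0.99 in spleen.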
